A study of Mus musculus with 8 samples.

Results

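The 32 genes described here encode the subunits and accessory proteins of the Polycomb repressive complexes. They were chosen by name from the gene rows of one differential expression table, which holds 17597 genes beside the transposable elements, and all 32 were found in it. RNA came from mouse embryonic stem (mES) cells of a Cast x 129S hybrid background, in which endogenous METTL3, the enzyme that writes N6-methyladenosine (m6A) on RNA, carries an FKBP12 F36V tag that lets the small molecule dTAG-13 trigger its degradation. Libraries were made in 2 groups of 4, one after 26 hours of dTAG-13 and one without it, and both C3 and H5 clones contributed 2 replicates to each. Cells of both groups carried a TetOn promoter in place of an endogenous Xist promoter (the labels put it on the 129S allele, the study's methods put these clones in a line with it on the Cast X chromosome), received no doxycycline, and were grown on inactivated mouse fibroblast feeders. Each line is a single clone, and the tag removes protein only while dTAG-13 is present. The comparison addresses which transcripts change when METTL3 is lost for about a day. The table gives 1 value per gene for the whole comparison and none per library, so no value per library is shown. The table does not name its numerator, and positive values were taken to mean more RNA with dTAG-13. Changes are given as log2 fold changes (log2FC) with the standard error (SE) of the same fit. Every direction below rests on that reading.

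Polycomb proteins keep developmental genes silent in stem cells. Polycomb repressive complex 2 (PRC2) methylates lysine 27 of histone H3 through EZH2 or EZH1. Polycomb repressive complex 1 (PRC1) places ubiquitin on histone H2A through RNF2 (also called RING1B) or RING1, paired with one of several PCGF proteins. Canonical PRC1 adds a CBX protein, which binds the methylated histone, and a PHC protein, while variant PRC1 carries RYBP or YAF2 instead and does not need the methyl mark to be recruited. Both complexes also act on the inactive X chromosome downstream of Xist.

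Of the 32 Polycomb genes, 2 were higher and 8 were lower with dTAG-13 at an adjusted p under 0.05 (the threshold used throughout), and 22 did not pass. Over all genes tested, 20.0% passed, 10.7% higher and 9.35% lower. Because 29 of the members had a mean count of 100 or more, the closer background is the 9899 genes at that level, of which 28.3% passed, 13.3% higher and 15.0% lower. Of those 29 members, 1 was higher and 8 were lower. By complex, of 11 PRC2 genes none was higher and 6 were lower, with a median log2FC of -0.33. Of 21 PRC1 genes 2 were higher and 2 lower, with a median of 0.13. The complexes also differed in level, with a median mean count of 3861 for the PRC2 genes and 556 for the PRC1 genes. Across the 32 genes, the rank correlation between mean count and log2FC was -0.45. Neither a difference between the complexes nor the part of level in it was tested. The median over all 32 was -0.10, and that of all genes with a mean count of 100 or more was -0.05. The members that passed were Ezh1, Ezh2, Eed, Suz12, Rbbp4, Phf19, Cbx7 and Phc1 in the lower direction, and Ring1 and Cbx8 in the higher direction.

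Promoters are shown for the main PRC2 enzyme gene (Ezh2, lower), the PRC1 enzyme gene that rose (Ring1), and the CBX genes that moved in opposite directions (Cbx7 and Cbx8). The sequence before one annotated start of each gene can thus be read beside its change in RNA. Each is the 250 bases before the RefSeq transcription start in GRCm38.p6, written 5′ to 3′ on the strand of the gene. All 4 genes lie on the minus strand. For Cbx7 and Ezh2 the RefSeq start used lies inside the gene span given below, so these windows fall within the spans. The Cbx8 window overlaps its span in part, and that of Ring1 lies outside it. Capitals mark a CCAAT box (CCAAT or its reverse complement ATTGG) or a GC box (GGGCGG or CCGCCC).
Ezh2, chr6:47595031-47595280: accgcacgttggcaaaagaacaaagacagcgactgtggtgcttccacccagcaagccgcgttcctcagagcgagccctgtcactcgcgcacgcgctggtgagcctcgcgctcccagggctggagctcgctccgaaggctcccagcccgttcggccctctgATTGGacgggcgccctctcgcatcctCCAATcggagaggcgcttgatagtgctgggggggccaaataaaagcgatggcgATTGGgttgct
Cbx7, chr15:79932647-79932896: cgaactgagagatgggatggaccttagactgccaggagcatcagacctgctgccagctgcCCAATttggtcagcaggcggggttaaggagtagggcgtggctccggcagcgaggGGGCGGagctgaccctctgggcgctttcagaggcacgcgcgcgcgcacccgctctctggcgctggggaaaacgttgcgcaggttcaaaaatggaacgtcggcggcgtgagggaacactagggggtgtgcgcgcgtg
Cbx8, chr11:119040914-119041163: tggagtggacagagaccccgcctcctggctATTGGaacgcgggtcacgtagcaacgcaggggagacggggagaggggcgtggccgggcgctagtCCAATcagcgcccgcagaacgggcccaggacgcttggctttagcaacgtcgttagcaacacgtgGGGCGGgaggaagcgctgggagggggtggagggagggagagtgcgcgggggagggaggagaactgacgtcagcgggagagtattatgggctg
Ring1, chr17:34024681-34024930: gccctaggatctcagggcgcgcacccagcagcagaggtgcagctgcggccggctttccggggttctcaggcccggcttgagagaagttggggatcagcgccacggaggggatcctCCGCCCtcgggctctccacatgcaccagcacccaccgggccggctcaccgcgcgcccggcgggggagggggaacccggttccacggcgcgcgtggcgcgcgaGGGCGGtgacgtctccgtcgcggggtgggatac

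The Ezh2 window held 3 CCAAT boxes and no GC box, and that of Cbx8 held 2 CCAAT boxes and 1 GC box. The Cbx7 window held 1 of each. The Ring1 window held 2 GC boxes and no CCAAT box, and it had the highest GC content of the 4, at 73.6% against 63.6% for Ezh2, 64.8% for Cbx7 and 66.4% for Cbx8. Of the 32 members, 28 had at least 1 promoter entry. Read on both strands, CCAAT occurred in the windows of 12 of these 28 genes, and in 33.8% of all 32851 promoter windows. GGGCGG occurred for 21 of the 28 members and in 32.7% of all windows. Counted by gene among the 7539 genes with a mean count of 100 or more and an entry, the shares were 41.5% for CCAAT and 67.1% for GGGCGG, close to the 42.9% and 75.0% of the members. The TATA box (TATAAA) was found upstream of 1 member, Jarid2 (3.57% of the members), in 12.4% of all windows and for 7.16% of the genes with a mean count of 100 or more.

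The PRC2 core genes were lower with dTAG-13 almost throughout. EZH2 is the main methyltransferase of PRC2 in dividing cells. Ezh2 (chr6:47530139-47595341) had a mean count of 1665 over the 8 libraries and a log2FC of -0.56 (SE 0.15, adjusted p = 0.00333), which is 0.680 times the level of untreated cells, or a change between -44.8% and -16.2% by the 95% interval. Suz12 (chr11:79993106-80034123), the scaffold subunit, fell by 0.51 on the log2 scale (SE 0.14, adjusted p = 0.00216) at a mean count of 5176. Eed (chr7:89954654-89980983) encodes the subunit that reads the methyl mark, and its log2FC was -0.33 (SE 0.11, adjusted p = 0.0143). The proteins of these 3 genes are needed together for PRC2 activity. With the trend of the fold change along GC content removed, Suz12 (adjusted p = 0.0595) and Eed (adjusted p = 0.0958) missed the threshold, and Ezh2 passed (adjusted p = 0.0309).

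EZH1 is the second and weaker methyltransferase. Ezh1 (chr11:101191115-101226463) fell as well, with a log2FC of -0.33 (SE 0.12, adjusted p = 0.0316). Its change differed from that of Ezh2 by 0.22 (95% interval -0.16 to 0.61), so a difference in response of the enzymes was not detectable, and the interval allows one of up to 0.61. RBBP4 and RBBP7 are closely related histone binding proteins that PRC2 shares with other chromatin complexes. Rbbp4 (chr4:129307100-129335370) had the smallest p among the PRC2 genes, with a log2FC of -0.42 (SE 0.084, adjusted p = 1.71e-05). Rbbp7 (chrX:162760402-162779092), the most abundant member at a mean count of 8414, had a log2FC of -0.23 (95% interval -0.41 to -0.05) and missed the threshold at an adjusted p of 0.0651. All 6 core genes lay below 0.

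**Figure D1:**
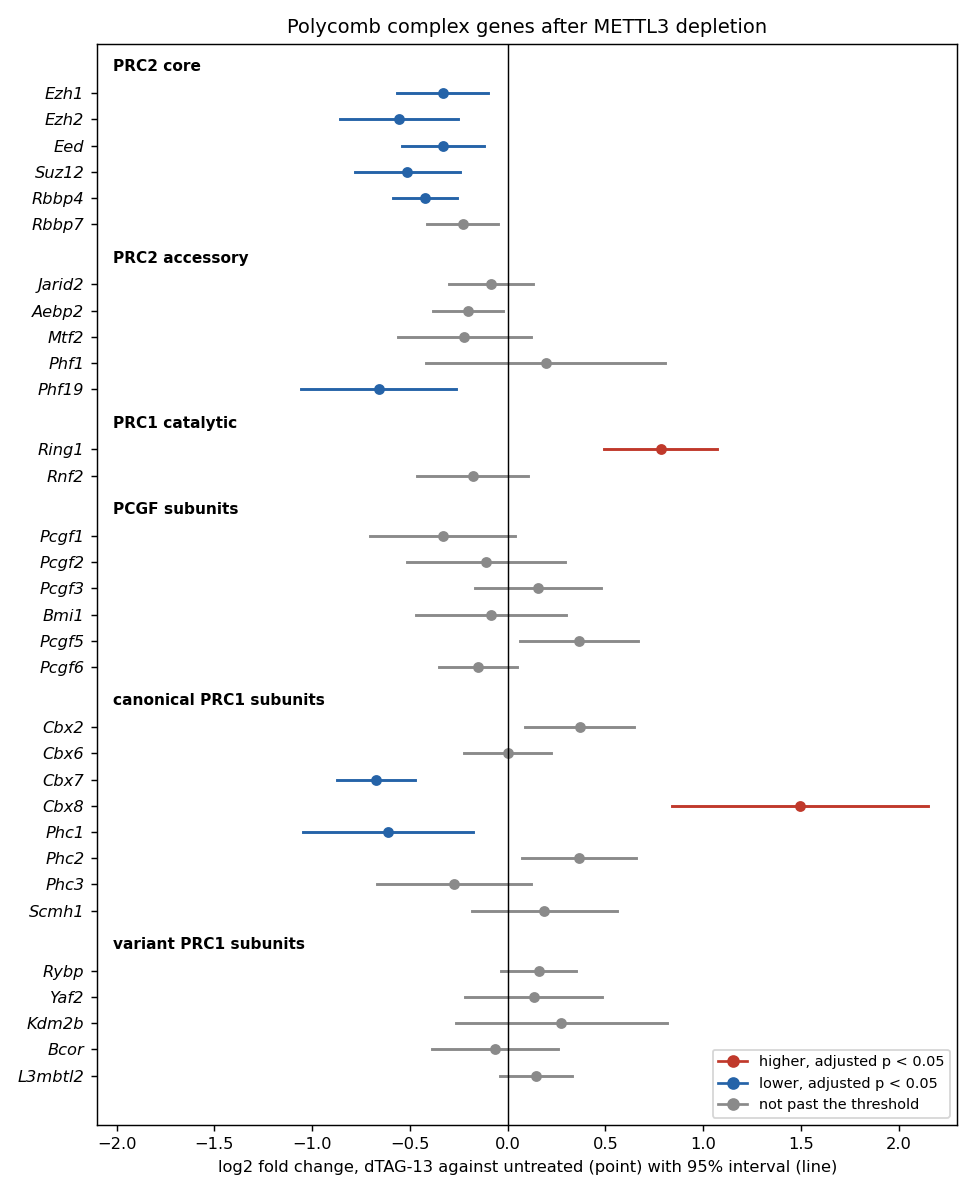
Log2 fold change with dTAG-13 against untreated for the 32 Polycomb genes (x axis), grouped by complex and role, with points for the estimates and lines for their 95% intervals. All 6 PRC2 core genes lie left of 0, the canonical PRC1 genes lie on both sides from -0.67 (Cbx7) to 1.50 (Cbx8), and no PCGF or variant PRC1 gene passed the threshold.

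Accessory PRC2 proteins steer the core to its sites. Of 5 genes only Phf19 passed, and it was lower. PHF19, MTF2 and PHF1 are Polycomb-like proteins that tie PRC2 to CpG islands. Phf19 (chr2:34893757-34914026) had a mean count of 880 and a log2FC of -0.66 (SE 0.20, adjusted p = 0.00896), or a change of -36.7%. Mtf2, with a mean count of 6827 the most abundant of these Polycomb-like genes, had a log2FC of -0.22 (95% interval -0.56 to 0.12, adjusted p = 0.422). The difference between Phf19 and Mtf2 was -0.44 (95% interval -0.96 to 0.08) as deposited, and its interval left out 0 only after the trend of the fold change with GC content was removed (-0.68). Both were measured with low precision, since their SE ranked at the 92.8th (Phf19) and 94.0th (Mtf2) percentile among genes of similar mean count.

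Phf1 was scarce, at a mean count of 29.6, and its log2FC was 0.19 (95% interval -0.42 to 0.80, adjusted p = 0.741). Of its exon bases, 39.3% are shared with Cuta on the opposite strand. Whether the counting used strand is uncertain, so Phf1 and Cuta reads may not be separated. JARID2 and AEBP2 form the alternative accessory module of PRC2, which recognises ubiquitinated H2A. The log2FC was -0.087 for Jarid2 (95% interval -0.30 to 0.13, adjusted p = 0.658) and -0.20 for Aebp2 (95% interval -0.38 to -0.02, adjusted p = 0.108). For Jarid2, Aebp2 and Mtf2 the intervals stayed within a 1.5-fold change either way, while that of Phf1 did not.

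The genes of the catalytic PRC1 subunits differed in their response. RING1 and RNF2 are alternative E3 ligases of H2A, and RNF2 provides most of the activity in mES cells. Ring1 (chr17:34020792-34024680) rose by 0.78 on the log2 scale (SE 0.15, adjusted p = 5.53e-06) at a mean count of 158, which corresponds to 71.9% above untreated (95% interval 40.5% to 110%). Rnf2 (chr1:151458004-151500955) had a log2FC of -0.18 (95% interval -0.47 to 0.11, adjusted p = 0.444). The difference between them was 0.96 (95% interval 0.55 to 1.37). Ring1 was also the minor transcript: per kb of transcript its level was 77.7, against 889 for Rnf2.

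None of the 6 PCGF genes passed the threshold. These proteins define the kind of PRC1: PCGF2 (also called MEL18) and BMI1 belong to canonical PRC1, PCGF1 and PCGF6 to variant complexes at CpG islands and germline genes, and PCGF3 and PCGF5 to the variant complexes that Xist RNA recruits. Pcgf5 came closest, with a log2FC of 0.36 (SE 0.15, adjusted p = 0.0811) at a mean count of 237. It passed in the same direction once fold changes were centred on genes with a mean count of 100 or more (0.41, adjusted p = 0.0408) or once the GC trend was removed (0.54, adjusted p = 0.00550). Pcgf3, the partner of Pcgf5, had a log2FC of 0.15 (95% interval -0.17 to 0.48). Their difference was -0.21 (95% interval -0.65 to 0.23).

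The log2FC was -0.33 for Pcgf1 (95% interval -0.70 to 0.04, adjusted p = 0.237), on a mean count of only 95.7. For Pcgf6 it was -0.15 (95% interval -0.35 to 0.05, adjusted p = 0.322), a tighter interval on a mean count of 1506. The canonical partners showed small values of -0.11 for Pcgf2 and -0.086 for Bmi1. Their difference was -0.03, with a 95% interval from -0.58 to 0.53 that leaves room for unequal responses.

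Canonical PRC1 genes moved in both directions. CBX7 is the main chromodomain protein of canonical PRC1 in mES cells, and in differentiation CBX2 and CBX8 gain in its place. Cbx7 (chr15:79915807-79971119) had the smallest p of all 32 members, with a mean count of 1425 and a log2FC of -0.67 (SE 0.10, adjusted p = 5.24e-09), or a change of -37.2% (95% interval -45.4% to -27.9%). Cbx8 (chr11:119036305-119040969) had the largest change of the 32, 1.50 on the log2 scale (SE 0.33, adjusted p = 0.000152), or 182% above untreated. It was also the second scarcest member at a mean count of 35.7, and its 95% interval ran from 79.3% to 343% above.

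Cbx2 had a log2FC of 0.37 (95% interval 0.09 to 0.65), with an adjusted p of 0.0508 just outside the threshold, while Cbx6 was at -0.00014 (95% interval -0.22 to 0.22). The differences from Cbx7 were 2.17 for Cbx8 (95% interval 1.48 to 2.85), 1.04 for Cbx2 (0.70 to 1.38) and 0.67 for Cbx6 (0.37 to 0.97). None of these intervals held 0, before or with the GC trend removed. Cbx7 thus had a lower log2FC than each other CBX member of the list.

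PHC proteins link PRC1 complexes to each other through a polymerising domain. Phc1 (chr6:122317731-122340561), the major one here, was lower with a log2FC of -0.61 (SE 0.22, adjusted p = 0.0339). Its SE ranked at the 97.0th percentile among genes of similar mean count, and it no longer passed after centring (adjusted p = 0.0578). Phc2 had a log2FC of 0.37 (SE 0.15, adjusted p = 0.0675) and passed only after centring (0.42, adjusted p = 0.0326). The difference between Phc2 and Phc1 was 0.98 (95% interval 0.45 to 1.50). Phc3 was at -0.27 (95% interval -0.67 to 0.12), and its difference from Phc1 was 0.34 (95% interval -0.25 to 0.92). Scmh1, which encodes an SCM protein that binds the PHC proteins, was at 0.19 (95% interval -0.18 to 0.56).

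**Figure D2:**
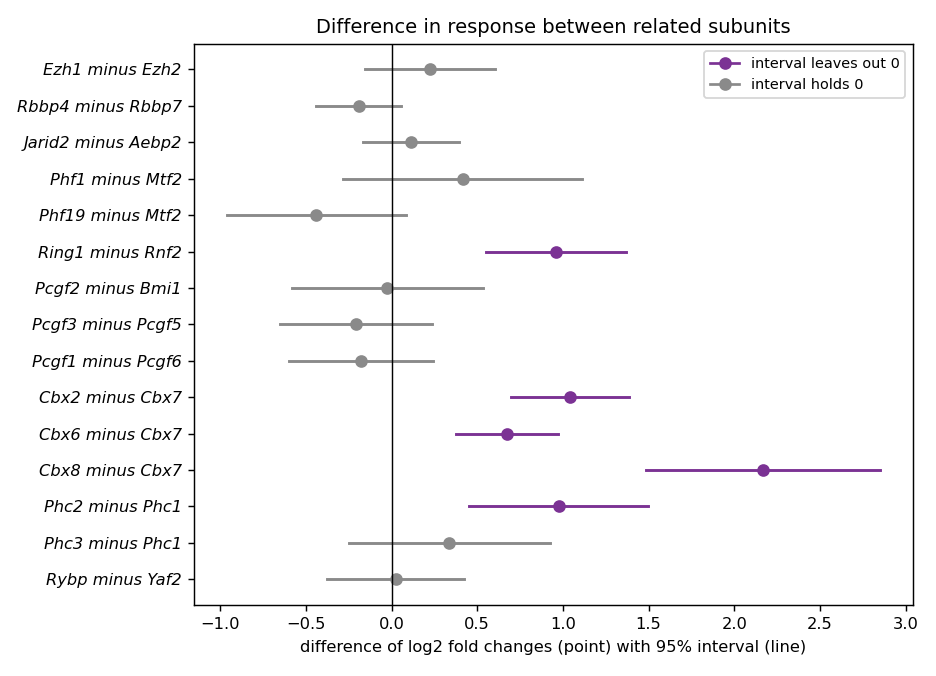
Difference of the log2FC (x axis) for 15 pairs of related subunits, with points for the differences and lines for 95% intervals that treat the errors of both genes as independent. The intervals of 5 pairs leave out 0: Ring1 minus Rnf2, the 3 CBX pairs with Cbx7, and Phc2 minus Phc1.

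Over the 15 pairs of related subunits the interval left out 0 for 5, and for 6 with the GC trend removed. The plot of these differences shows that the 5 are all PRC1 pairs, which also make up most of the 15. The CBX pairs among them share Cbx7 and so are not separate results. The pair added with the GC trend removed was a PRC2 pair, Phf19 minus Mtf2. The intervals were not adjusted for the number of pairs. In the pairs with Rnf2, Cbx7 and Phc1 the more abundant gene was the one with the lower log2FC, though the interval of Phc3 minus Phc1 held 0. Ezh2 over Ezh1, Mtf2 over Phf1, Pcgf2 over Bmi1 and Pcgf3 over Pcgf5 showed the same order, with intervals that all held 0. The opposite order was seen for Rbbp7 over Rbbp4, Jarid2 over Aebp2, Mtf2 over Phf19, Pcgf6 over Pcgf1 and Rybp over Yaf2. As deposited, the intervals of those pairs all held 0. No rule linking level and response was tested.

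No gene of the variant PRC1 subunits passed the threshold. RYBP stimulates H2A ubiquitination, and YAF2 is its paralog. Their log2FC were 0.16 for Rybp (95% interval -0.03 to 0.35, adjusted p = 0.280) and 0.13 for Yaf2 (95% interval -0.22 to 0.48), a difference of 0.024 (95% interval -0.38 to 0.42). Rybp passed only with the GC trend removed (0.32, adjusted p = 0.00835). KDM2B brings PCGF1 complexes to unmethylated CpG islands. Kdm2b had a log2FC of 0.27, but its 95% interval ran from -0.26 to 0.81 and its SE ranked at the 99.2nd percentile among genes of similar mean count. BCOR, the PCGF1 scaffold encoded on the X chromosome, had a log2FC of -0.064 (95% interval -0.38 to 0.26). L3MBTL2, part of the PCGF6 complex, had one of 0.14 (95% interval -0.04 to 0.33), and 17.2% of the exon bases of L3mbtl2 are shared with Chadl on the opposite strand.

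Of the 22 members that did not pass, 15 had a 95% interval that stayed within a 1.5-fold change in either direction. The other 7 reached it and so could hide a change of that size: Phf1, Pcgf1, Pcgf5, Cbx2, Phc2, Phc3 and Kdm2b. In all, 13 members share exon bases with another gene, mostly on the opposite strand, by up to 9.10% with any single gene for members other than Phf1 and L3mbtl2.

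Levels of different genes were compared as the mean count over all 8 libraries per kb of one transcript. Within each family a single gene held the largest share of the signal. Ezh2 had 597 per kb and Ezh1 111, so Ezh2 made up 84.4% of their sum. Rbbp7 held 77.8% of the RBBP pair, Mtf2 87.2% of the Polycomb-like genes, Rnf2 92.0% of the RING1 pair, Phc1 86.6% of the PHC genes, and Rybp 92.2% of the pair with Yaf2. Pcgf6 held 59.3% of the PCGF genes (46.6% with the union of all exons as length) and Cbx7 62.1% of the 4 CBX members. These means pool both groups, have no error, and may include RNA of feeder cells.

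Of the dominant genes, Ezh2, Cbx7 and Phc1 were lower and none was higher. The 2 members that rose were minor transcripts, with Ring1 at 8.04% of the RING1 pair and Cbx8 at 1.47% of the CBX members. On the scale of counts per kb, Cbx8 stood at 9.97, the lowest of the 32 with one transcript as length. With the union of exons Phf1 was lower than Cbx8. A large fold change of Cbx8 thus started from a low level.

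**Figure D3:**
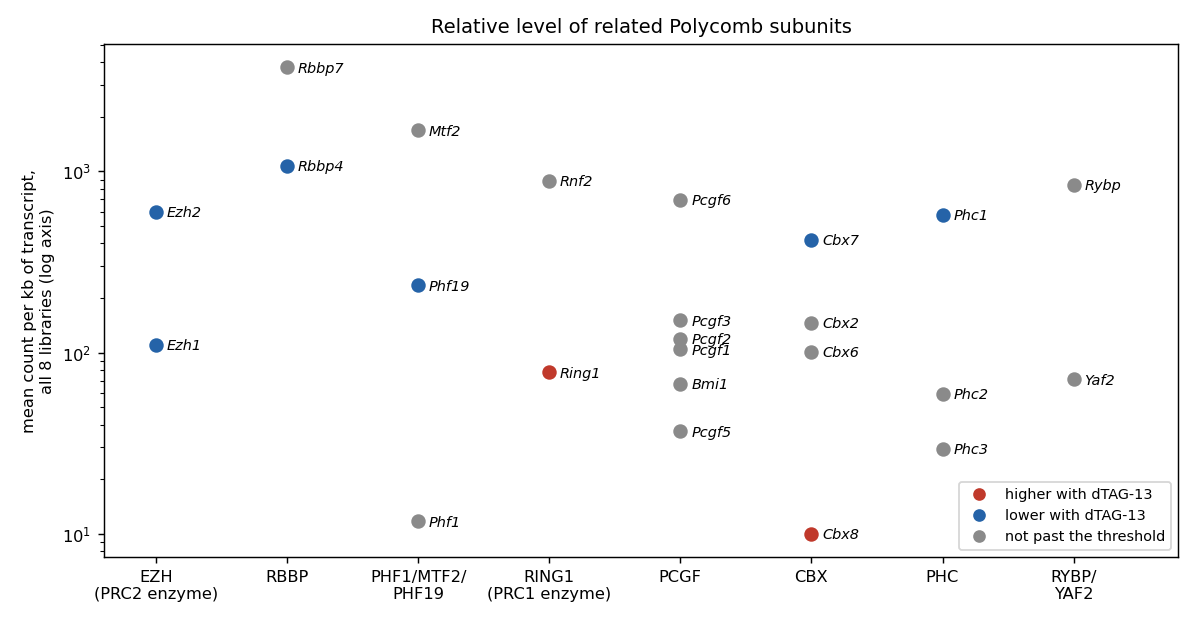
Mean count per kb of transcript over all 8 libraries (y axis, log scale) for members of 8 families of related subunits, with red for higher, blue for lower and grey for not past the threshold. Both members that were higher, Ring1 (77.7 per kb) and Cbx8 (9.97 per kb), lie below their main relatives Rnf2 (889) and Cbx7 (420).

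Some calls moved with the scaling of the fold changes. Besides the deposited values, fold changes were centred on the median of genes with a mean count of 100 or more, or the running trend with transcript GC content was removed. Under all 3 scalings 6 members passed: Ezh2, Rbbp4, Phf19 and Cbx7 were lower, and Ring1 and Cbx8 were higher. Ezh1 lost its call after centring (adjusted p = 0.0809), as Phc1 did. Eed (-0.25, adjusted p = 0.0958) and Suz12 (-0.35, adjusted p = 0.0595) lost theirs with the GC trend removed, with the same sign. Cbx2 passed after centring (adjusted p = 0.0226) but was at 0.19 (adjusted p = 0.404) with the GC trend removed. Of the 5 PRC2 core genes that were lower as deposited, Ezh2 and Rbbp4 were lower under every scaling tried, while Suz12, Eed and Ezh1 each lost the call under 1 of them.

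**Figure D4:**
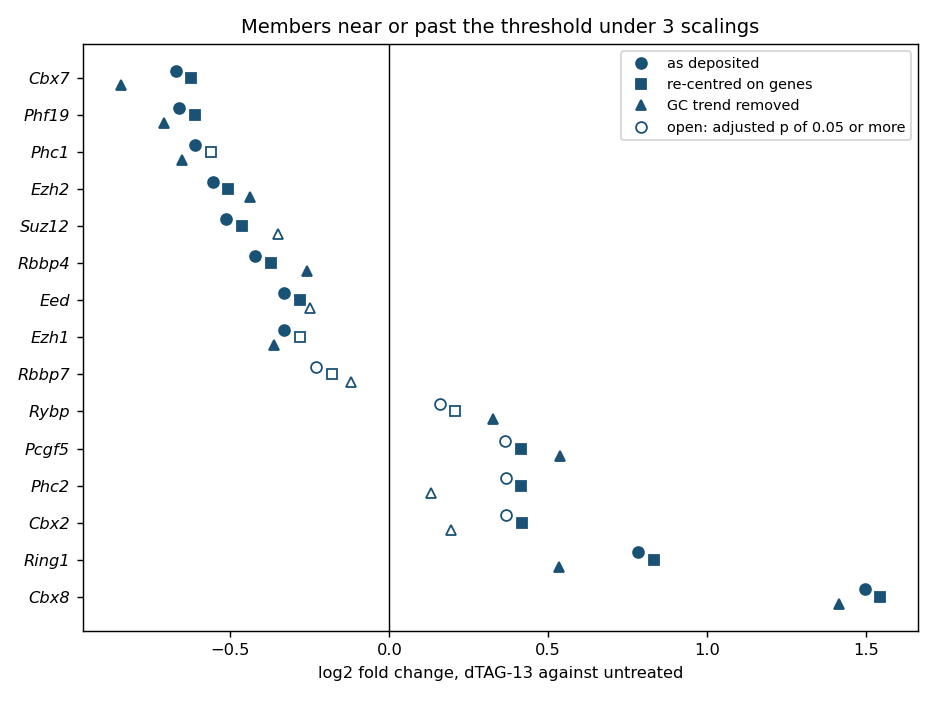
Log2 fold change (x axis) of members near or past the threshold under 3 scalings, with filled symbols for an adjusted p under 0.05 and open symbols otherwise. Cbx7, Phf19, Ezh2, Rbbp4, Ring1 and Cbx8 are filled in all 3, while each other member shown has at least 1 open symbol.

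Features of the transcripts varied widely among the members. GC content ran from 38.2% in Mtf2 to 60.7% in Ring1, and the transcript length from 918 bases in Pcgf1 to 10976 in Phc3. Across the 32 genes, Spearman's rank correlation between GC content and the log2FC was 0.30, against 0.32 across 13447 genes with a mean count of 10 or more. The rank correlation with the mean count was -0.45, against -0.26 across all of these genes. Both are descriptions across genes, which share the same libraries and are not independent replicates.

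GGACT, the most common sequence around m6A in mammalian RNA, was counted in one transcript per gene. The members held a median of 0.758 per kb, below the 1.05 per kb of all genes compared. Suz12 and Pcgf1 had none, and Phf1 had the most, at 1.98 per kb. Cbx8 held 6 copies (1.68 per kb), Cbx7 held 2 (0.590 per kb) and Ring1 held 1 (0.492 per kb). The rank correlation between GGACT per kb and the log2FC was 0.46 over the 32 members and 0.14 over all genes compared. A GGACT is not a measured m6A site, and methylation of these transcripts was not analysed here.

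Cbx2 (chr11:119022962-119031270) and Cbx8 lie beside each other on chromosome 11, and both estimates were above 0, at 0.37 and 1.50. Cbx6 and Cbx7, which lie near each other on chromosome 15, were at -0.00014 and -0.67.

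Among the 20 other genes of Polycomb complexes that are reported, 4 were lower and none higher, with a median log2FC of -0.15 over the 20. The 20.0% that passed lay below the 28.3% of all genes with a mean count of 100 or more, of which 15.0% were lower. Usp7, a deubiquitinase bound to variant PRC1, fell by 0.37 (SE 0.070, adjusted p = 3.81e-06). Csnk2a1, which encodes a catalytic subunit of the casein kinase that joins PCGF3 and PCGF5 complexes, fell by 0.40 (SE 0.10, adjusted p = 0.00107). The gene of the other catalytic subunit, Csnk2a2, did not pass (log2FC -0.037, adjusted p = 0.884). Hnrnpk, whose protein bridges Xist RNA and these complexes, had a log2FC of -0.26 (SE 0.084, adjusted p = 0.0135). Dcaf7, which encodes a scaffold protein of some PRC1 complexes, was at -0.28 (adjusted p = 0.0203). Hnrnpk and Dcaf7 missed the threshold under both other scalings, and Csnk2a1 with the GC trend removed (adjusted p = 0.0840).

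The tag removes METTL3 protein, and the RNA of Mettl3 is no check of it: its log2FC was -0.092 (SE 0.31, adjusted p = 0.886) at a mean count of 684. All 10 stem cell markers were well detected, with mean counts from 1019 to 11934, the highest for Pou5f1, Dppa5a and Zfp42. Of these 10, 3 were lower (Lin28a, Tdgf1 and Dppa5a) and none was higher. Among all genes with a mean count of 100 or more, 28.3% passed and 15.0% were lower. Tdgf1 missed the threshold with the GC trend removed (adjusted p = 0.138). The 18 fibroblast markers had mean counts from 0.77 to 4941, the highest for Fn1, Sparc and Vim, and a median log2FC of 0.03. Of these, 2 were higher (Col5a1, adjusted p = 0.000466, and Loxl1, adjusted p = 0.000533) and 1 was lower (Vim, adjusted p = 0.00380). Some genes of the fibroblast list were thus detected. Others had low mean counts, among them Col1a1 (19.8), Col1a2 (13.8), Col3a1 (8.38), Dcn (7.50), Lum (1.45) and Postn (0.77). The part of fibroblast RNA in the results for Polycomb genes was not tested. In bulk RNA, fewer cells of a type and less RNA per cell cannot be told apart.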

How the data were processed

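Total RNA libraries of both groups were compared in a single table that the authors made with TEtranscripts and its DESeq2 Wald test. The study's methods state that reads were cleared of ribosomal RNA, uniquely aligned to mm10 with STAR, and freed of duplicates with Picard. The extraction text of the labels describes chromatin RNA, while the molecule label and the methods give total RNA. No value per library was analysed, the total per library is therefore unknown, and the standard errors carry the precision.

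The signal column that the authors deposited averages the size-factor-scaled counts of the 8 libraries (the mean count). The log2 fold changes were deposited from a fit of all libraries without clone as a term. The authors' standard errors and Wald statistics, scores in the table, came from the same fit. The authors' p-values carried a Benjamini-Hochberg adjustment, and all 18694 adjusted values were recomputed and equal to 6 digits. These columns are the authors' own comparison, and fold changes, errors and adjusted p printed here were copied from them, except for the re-scaled values. The name of the table holds the word reverse, which may mean a strand setting or an inverted contrast.

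Intervals are 95% normal intervals, unadjusted. Replicates differed in clone or in number, and p-values measure only the spread between these samples. Symbols were matched to GENCODE vM21 on GRCm38 (17358 genes, 98.6%), and 1 transcript per gene gave length and GC content. The GC trend was a running median over 501 genes whose mean count was 10 or more. It, the centring and the adjustment were tested on simulated data. The simulated noise was drawn from the same standard errors. That test therefore cannot show whether the errors or the scalings suit these data. Promoters came from RefSeq (GRCm38.p6). Analyses used Python 3.11.15, pandas 2.3.3, numpy 2.4.6 and scipy 1.17.1. All 32 members are named, with up to 4 genes past the threshold per further list. Of the further lists, 2 genes are not reported here and were left out of counts and medians. Of the remaining listed genes, 20 of 21 of other Polycomb complex genes and 26 of 29 Polycomb target genes had a value that was analysed. Members and lists were chosen with earlier results of these data known.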

Additional observations from a re-analysis of the deposited data

How the results depend on the processing

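With fold changes re-centred by -0.0496, 5 members were higher, and with the GC trend removed 4 were. Either way 6 were lower. Adjustment over genes alone gave 3 higher and 8 lower, and the minimum mean counts of 10 and 100 each gave 3 higher and 9 lower. Members under a minimum could not pass. At 100 this left out Cbx8 (mean count 35.7), so the 3 higher there were not the same members as at 10. At an adjusted p under 0.1, 5 were higher. At an adjusted p under 0.01, 5 were lower, and with a change of at least 1.5-fold 3 were lower. Signs turned for 3 members that passed in no scaling: Phf1 (-0.040) and Bmi1 (0.090) with the GC trend removed, and Cbx6 (0.049) after re-centring. Of the 32 log2 fold changes, 21 kept their sign and their side of the threshold under both scalings. With the union of exons as length, family shares were 80.0% for Ezh2, 84.3% for Rbbp7, 86.7% for Mtf2, 93.4% for Rnf2, 46.6% for Pcgf6, 52.9% for Cbx7, 89.8% for Phc1 and 92.6% for Rybp. The rank correlation of the fold change with GC content was then 0.26, and that with length turned from 0.069 to -0.022. The cause of these shifts was not tested. No paired analysis was possible because the table gives 1 value per feature over all libraries, so the fit with clone and replicate as blocks and the omission of single libraries were not run, and whether a single library or clone decides a value is not known.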

Other observations

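Proteins that remove Polycomb marks or act against them form the counterpart of the complexes. For comparison, 28.3% of all genes with a mean count of 100 or more passed, 13.3% higher and 15.0% lower. The median log2 fold change of those genes was -0.05. Of 14 genes of the PR-DUB complex and other H2A deubiquitinases, 1 was higher and 1 lower, with a median log2 fold change of -0.19. Usp16, an H2A deubiquitinase, rose by 0.36 (standard error 0.11, adjusted p = 0.00919), and Mysm1, another, fell by 0.34 (standard error 0.12, adjusted p = 0.0245) but missed the threshold under both other scalings. Of 10 genes of Trithorax complexes and H3K27 demethylases, 4 were lower and none higher, with a median of -0.40. These were Ash2l (-0.52, adjusted p = 1.44e-05) and Rbbp5 (-0.39, adjusted p = 0.000584), core subunits of the H3K4 methyltransferase complexes, Kdm6a (-0.42, adjusted p = 0.000235), an H3K27 demethylase, and Kmt2c (-0.82, adjusted p = 0.0217), an H3K4 methyltransferase.

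Of 26 developmental genes that were listed as Polycomb targets and are reported, 2 were higher and none lower. They were Evx1 (1.07, adjusted p = 0.000520) and Foxa2 (1.23, adjusted p = 0.0434), transcription factors of the embryo, and Foxa2 did not pass with the GC trend removed (adjusted p = 0.0888). These 2 are 7.69% of the 26, below the 20.0% of all genes that passed. The median log2 fold change of the 26 was 0.47. Not all were scarce, as Tbx3 had a mean count of 1117, the highest of the 26. Most of the 26 were near the limit of detection, with a mean count under 10, and the median over all 4007 genes under that level was 0.33. The other 10 had a mean count of at least 10 and a median of 0.22, against -0.01 over all genes at that level. Of these 10 genes 20% passed, against 25.5% of all genes at that level.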
